A study of Mus musculus with 8 samples.

Results

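The 8 genes Rgs2, Ctnnd2, Mapre2, Tmem158, Nsg2, Defb1, Tmem163 and RP24-201C14.4 had higher RNA levels in GSTM1 knockdown (KD) astrocytes than in control KD astrocytes, with and without TNF-α. They were selected on exactly those values, out of 54146 genes listed in each library, and all 8 were found in every library by their symbols. Their working description is the strongest consistently higher genes in GSTM1 KD. The choice itself fixed that they were consistently higher, and many other genes differed as strongly. In each state all 8 genes were higher in both GSTM1 KD libraries than in both control KD libraries, but so were 32.3% of the 14899 genes tested at the basal level and 34.7% of the 14593 genes tested after stimulation. Ranked by the smaller of their log2 fold changes over the 2 states among 14379 genes in both fits, Defb1 had 3 genes above it, Tmem163 had 11, RP24-201C14.4 had 17 and Nsg2 had 53. Ctnnd2 had 120, Tmem158 had 144, Mapre2 had 165 and Rgs2 had 198, so 191 genes outside the set reached at least the value of its lowest member.

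RNA-seq was performed on primary mouse astrocytes grown from the cortices of newborn C57BL/6 pups, in 8 libraries of 2 replicates per group. The 4 groups were control KD without stimulation (the basal level), GSTM1 KD likewise, and both knockdowns after 6 h with 50 ng/ml TNF-α. All 4 groups carried a lentiviral vector and passed through puromycin selection: GSTM1 KD cells expressed an shRNA against Gstm1 and control KD cells a non-silencing shRNA. The study asked how GSTM1, an enzyme that joins glutathione to its targets, shapes the transcriptional response of astrocytes to this inflammatory cytokine. A group is thus a selected population of infected cells in culture rather than a clone or a mutant mouse, and in such bulk RNA a change in the number of cells of a type and a change in RNA per cell cannot be told apart.

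The genes encode proteins of unrelated kinds. RGS2 is a regulator of G protein signaling that speeds the shutdown of Gq, the G protein through which many receptors raise calcium in astrocytes, and its gene is a classical target of cAMP signaling. CTNND2 (δ-catenin) belongs to the p120 catenins, which hold cadherins at the membrane and are best known at the synapses of neurons. MAPRE2 (EB2) binds the growing ends of microtubules. NSG2 is a small membrane protein of neuronal endosomes, TMEM158 was described as a gene induced during RAS-driven senescence, DEFB1 is a secreted antimicrobial peptide of epithelia, and TMEM163 exports zinc from cells. RP24-201C14.4 is no protein-coding gene but a noncoding transcript in a cluster of histone genes.

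In the GRCm38 assembly, with GENCODE release 21 for mouse, the genes lay on 7 chromosomes. Rgs2 (ENSMUSG00000026360.9, chr1:143999338-144004161, minus strand) and Tmem163 (ENSMUSG00000026347.13, chr1:127486546-127679548, minus strand) shared chromosome 1. Ctnnd2 (ENSMUSG00000022240.10, chr15:30172593-31029341, plus strand) was the longest locus, and Tmem158 (ENSMUSG00000054871.5, chr9:123259053-123260764, minus strand) consisted of a single exon. Nsg2 (ENSMUSG00000020297.10, chr11:32000463-32059202) and Defb1 (ENSMUSG00000044748.8, chr8:21776599-21795185) lay on plus strands. RP24-201C14.4 (ENSMUSG00000070392.5, named Gm20634 in GENCODE, chr3:96245554-96248509, plus strand) was a single-exon processed transcript.

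The RefSeq table of GRCm38.p6 held the sequence before the start for 4 of the 8 genes. The upstream sequences of Rgs2 (chr1:144004162-144004399, minus strand), Ctnnd2 (chr15:30172284-30172533, plus strand) and Nsg2 (chr11:32000169-32000418, plus strand) are shown because these genes, whose group means stood in the same order, had unlike sequences before their starts. The window of Tmem163 and that of a second start of Nsg2 overlapped annotated exons and are not shown. Capitals mark the CRE half-site TGACG, the GC box GGGCGG and the CCAAT box, on either strand, and 12 exonic bases at the end of the Rgs2 window were left off.
Rgs2: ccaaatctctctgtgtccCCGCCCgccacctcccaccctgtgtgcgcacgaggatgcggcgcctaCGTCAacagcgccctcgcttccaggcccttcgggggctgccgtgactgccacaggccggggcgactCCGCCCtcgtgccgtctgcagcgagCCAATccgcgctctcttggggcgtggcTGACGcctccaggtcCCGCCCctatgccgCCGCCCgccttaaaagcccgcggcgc
Ctnnd2: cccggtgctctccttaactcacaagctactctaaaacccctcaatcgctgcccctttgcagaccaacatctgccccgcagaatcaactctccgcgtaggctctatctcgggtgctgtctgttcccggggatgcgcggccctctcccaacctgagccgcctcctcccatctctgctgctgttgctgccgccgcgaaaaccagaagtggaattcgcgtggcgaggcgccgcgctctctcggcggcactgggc
Nsg2: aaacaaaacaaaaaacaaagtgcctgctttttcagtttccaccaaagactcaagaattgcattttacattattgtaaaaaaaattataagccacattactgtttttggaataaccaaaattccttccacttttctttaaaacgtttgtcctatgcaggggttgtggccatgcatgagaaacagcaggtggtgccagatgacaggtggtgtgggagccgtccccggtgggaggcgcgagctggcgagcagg
Over the 250 bases, Rgs2 had a GC content of 72.4% and 30 CpG dinucleotides, against medians of 52.4% and 6 over 32851 windows of the same length. It held 2 CRE half-sites, 67 and 185 bases before the start, 4 GC boxes and 1 CCAAT box. Among all windows, 17.8% held TGACG, 32.7% held GGGCGG and 33.8% held CCAAT on either strand. The printed windows of Ctnnd2 (GC content 62.8%) and Nsg2 (43.6%) held none of these, nor the AP-1 site TGANTCA (6.75% of all windows), the antioxidant response element core TGACNNNGC (10.2%), the NF-κB site (0.356%), the E-box CACGTG (6.02%) or the TATA box TATAAA (12.4%). The window of the second Nsg2 start (GC content 56.4%) did hold the antioxidant response element core, 136 bases before the start, and a CCAAT box at 143 bases, and that of Tmem163 held a CCAAT box at 6 bases. A match is a run of letters in the window and not a bound site.

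The libraries held from 17349682 to 34434615 expected counts, and 3 counts, taken as the floor of detection, stood between 0.0871 and 0.173 counts per 1000000 of these unscaled totals, which covers counting error only. Gstm1 was lower in every GSTM1 KD library (405 to 676 counts) than in every control KD library (4851 to 9644 counts). All 10 astrocyte markers (Gfap and Aqp4 among them) were measured, and they summed to 3166 and 7115 CPM in the unstimulated control KD libraries against 6132 and 9135 CPM in those of GSTM1 KD, and to 3338 and 7388 CPM against 6398 and 9044 CPM with TNF-α. The control KD replicates thus differed more from each other than those of GSTM1 KD, and the ranges of the knockdowns overlapped. Fibroblast and mural cell markers summed to 3670 to 3897 CPM in unstimulated control KD and 1844 to 2061 CPM in unstimulated GSTM1 KD. Single markers went both ways: of the 7 tested at the basal level, Rgs5, Pdgfrb and Dcn had positive log2 fold changes. Acta2 and Col1a2 were lower in both states at an adjusted p under 0.05 from edgeR, and Pdgfrb was higher after stimulation. Microglial markers summed to at most 8.70 CPM in any library, with P2ry12 at 3 counts or fewer throughout. Oligodendrocyte lineage markers summed to 710 to 840 CPM against 608 to 615 CPM and endothelial markers to 18.5 to 19.2 CPM against 10.1 to 12.6 CPM. Per the paper, astrocytes were enriched by shaking off oligodendrocyte lineage cells and microglia and by keeping the fraction negative for CD11b. The part of all these other cell types in the results below was not tested. CPM are counts per 1000000 after edgeR's TMM scaling. Fold changes come from edgeR's quasi-likelihood fit of the rounded counts, and a gene passed the test at a Benjamini-Hochberg adjusted p under 0.05 over all genes tested. The differences between GSTM1 KD and control KD of the 8 genes chose them, so these are described with no test.

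Rgs2, the regulator of Gq, had close replicates without stimulation. Control KD stood at 20.8 and 19.9 CPM and GSTM1 KD at 61.8 and 61.9 CPM, which gave 1.60 on the log2 scale (standard error 0.109). After TNF-α stimulation control KD stood at 12.5 and 7.64 CPM and GSTM1 KD at 26.4 and 28.5 CPM, which gave 1.41 (standard error 0.251). The 4 groups did not overlap, and they stood in the order GSTM1 KD basal, GSTM1 KD TNF-α, control KD basal and control KD TNF-α. The control KD replicates after stimulation were the pair that differed most, and without replicate 1 or replicate 2 of that pair the log2 fold change was 1.82 or 1.11.

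Ctnnd2 followed the same order of groups. Without stimulation, control KD stood at 55.6 and 65.3 CPM and GSTM1 KD at 181 and 188 CPM, and with TNF-α the values were 38.9 and 48.1 CPM against 160.5 and 169 CPM. Its log2 fold changes between the knockdowns were 1.61 (standard error 0.123) and 1.90 (standard error 0.128) in the 2 states. No 2 of its groups overlapped.

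Mapre2 (ENSMUSG00000024277.14) lay on the plus strand at chr18:23752333-23893861. Without stimulation its levels were 30.1 and 36.6 CPM in control KD against 85.7 and 99.8 CPM in GSTM1 KD. After stimulation they were 21.5 and 24.9 CPM against 76.5 and 85.5 CPM. The groups again stood apart in the same order, with log2 fold changes of 1.47 (standard error 0.145) and 1.78 (standard error 0.122) between the knockdowns.

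For Tmem158 the unstimulated control KD libraries held 18.1 and 18.6 CPM and those of GSTM1 KD 48.0 and 59.8 CPM. After TNF-α the control KD values were 10.1 and 10.3 CPM, against 36.5 and 41.0 CPM for GSTM1 KD. This gene too had no overlap between any of its groups, and its log2 fold changes were 1.55 (standard error 0.149) and 1.90 (standard error 0.133).

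Nsg2 had the highest mean level per length of the 8 genes in every group, although single control KD libraries overlapped those of other genes. Unstimulated control KD had 23.7 and 41.0 CPM and GSTM1 KD 134 and 141 CPM, and with TNF-α the values were 20.6 and 32.3 CPM against 119 and 139 CPM. Without stimulation the control KD replicates were further apart than the GSTM1 KD replicates, and the levels of a knockdown before and after TNF-α overlapped. The log2 fold changes between the knockdowns were 2.09 (standard error 0.259) and 2.27 (standard error 0.222). Neuronal markers summed to 432 to 443 CPM in unstimulated control KD against 489 to 531 CPM in unstimulated GSTM1 KD, and to 406 to 410 CPM against 453 to 501 CPM after stimulation. Of the 13 markers, Dcx and Snap25 had 3 counts or fewer in every library, 8 could be tested, and in each state Elavl3 passed as higher and Nefm as lower, and the part of such cells in the level of Nsg2 was not tested.

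Defb1 showed the largest difference of the set, with few counts in control KD. Unstimulated control KD gave 14 and 29 counts and GSTM1 KD 253 and 347 counts, or 0.396 and 1.13 CPM against 10.9 and 17.4 CPM. With TNF-α it had 12 and 22 counts against 196 and 225 counts, or 0.517 and 1.32 CPM against 9.05 and 12.9 CPM. All control KD libraries were above the floor of 3 counts, and all lay far under both GSTM1 KD libraries of their state. The log2 fold change was 4.26 at the basal level (standard error 0.513) and 3.60 after stimulation (standard error 0.454). It depended on single control KD libraries, since without replicate 1 or replicate 2 at the basal level it was 3.63 or 5.13, and without those after stimulation it was 3.02 or 4.37.

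Tmem163 had a pattern close to that of Defb1, at a lower level. Unstimulated control KD gave 14 and 27 counts and GSTM1 KD 162 and 193, and with TNF-α there were 11 and 20 against 125 and 141. In CPM this was 0.396 and 1.06 against 6.95 and 9.67, and 0.474 and 1.20 against 5.77 and 8.10. Each control KD library stood far under each GSTM1 KD library, and within each knockdown the 2 states overlapped. Its log2 fold changes of 3.56 (standard error 0.484) and 3.07 (standard error 0.469) were 4.36 and 3.83 without control KD replicate 2 of that state, and the former was 2.96 without replicate 1. The effective length of Tmem163, the mean length of its transcripts weighted by their estimated abundance, ran from 1156 bases in GSTM1 KD replicate 2 at the basal level to 2424 bases in control KD replicate 1 after TNF-α, and with these lengths in the fit the log2 fold change after stimulation was 3.73. The 3′ ends of Tmem163 and of Mgat5, a gene of 4906 to 10021 counts on the opposite strand, overlapped over 152 exonic bases. Mgat5 itself had log2 fold changes of -0.35 and -0.38, neither past the test (adjusted p = 0.212 and 0.223 from edgeR).

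RP24-201C14.4 had 391 and 251 counts in the unstimulated control KD libraries against 1525 and 1786 in those of GSTM1 KD, or 11.1 and 9.82 CPM against 65.5 and 89.5 CPM. After TNF-α it had 270 and 167 counts against 1329 and 1394 counts, or 11.6 and 10.1 CPM against 61.4 and 80.1 CPM. The libraries of a knockdown overlapped between the states and the knockdowns stood apart, with log2 fold changes of 2.89 (standard error 0.191) and 2.67 (standard error 0.177).

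**Figure D1:**
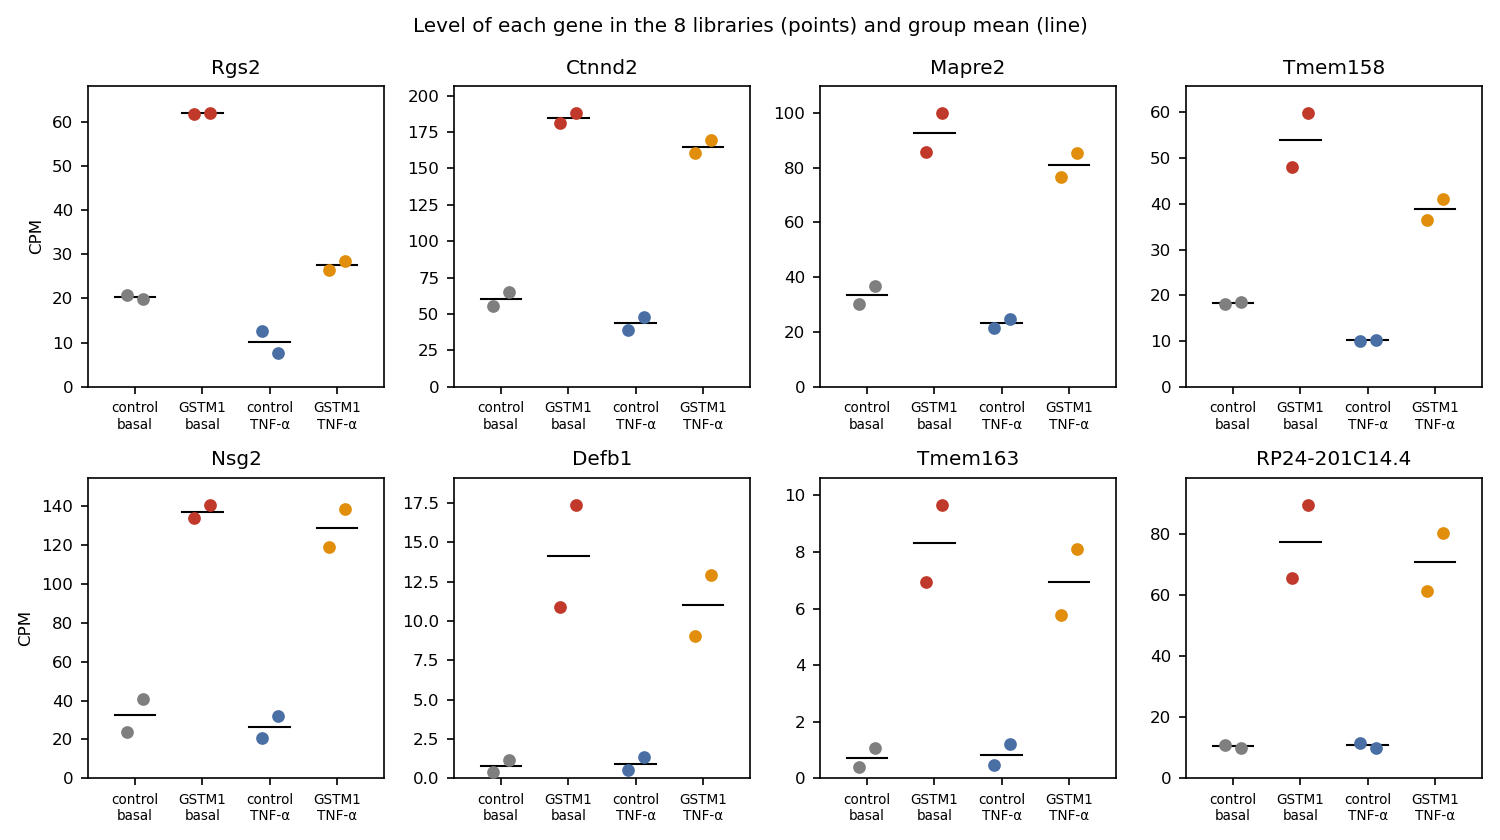
Level of each of the 8 genes in CPM (vertical axes, each starting at 0) in the 2 libraries of each group (points, with the group mean as a line). Both GSTM1 KD groups stood above both control KD groups for every gene, and for Rgs2, Ctnnd2, Mapre2 and Tmem158 the 4 groups did not overlap.

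The counts of RP24-201C14.4 could not be assigned to it alone. Its annotated span includes the whole of Hist2h3c1, a histone H3 gene on the same strand, over 1825 bases, and it also shares 529 exonic bases with Hist2h2aa2 (the name in the deposited tables, Hist2h2aa1 in GENCODE). Of its 2857 stretches of 100 bases, 2508 (87.8%) also occurred in a transcript of another gene, and Hist2h3c1 was listed at 0 counts in every library. The neighbouring copy Hist2h3c2 had 168 and 83 counts in unstimulated control KD against 455 and 510 in GSTM1 KD, and 93 and 41 against 402 and 430 after stimulation, while Hist2h2aa1 had 1237 and 947 against 1664 and 1778, and 753 and 644 against 1595 and 1424. How the counting divided reads between these genes was not tested. Summed over this transcript and 6 genes beside it, the counts were 2264 and 1691 in unstimulated control KD against 4156 and 4510 in GSTM1 KD. For 68 replication-dependent histone genes, a list added after the values of this cluster were seen and therefore given with no test, 30 entered the fit at the basal level, 29 had a positive log2 fold change, and the median was 1.34 against 0.00 over all 14899 genes. After stimulation 27 of 28 were positive, with a median of 1.32 against -0.01.

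**Figure D2:**
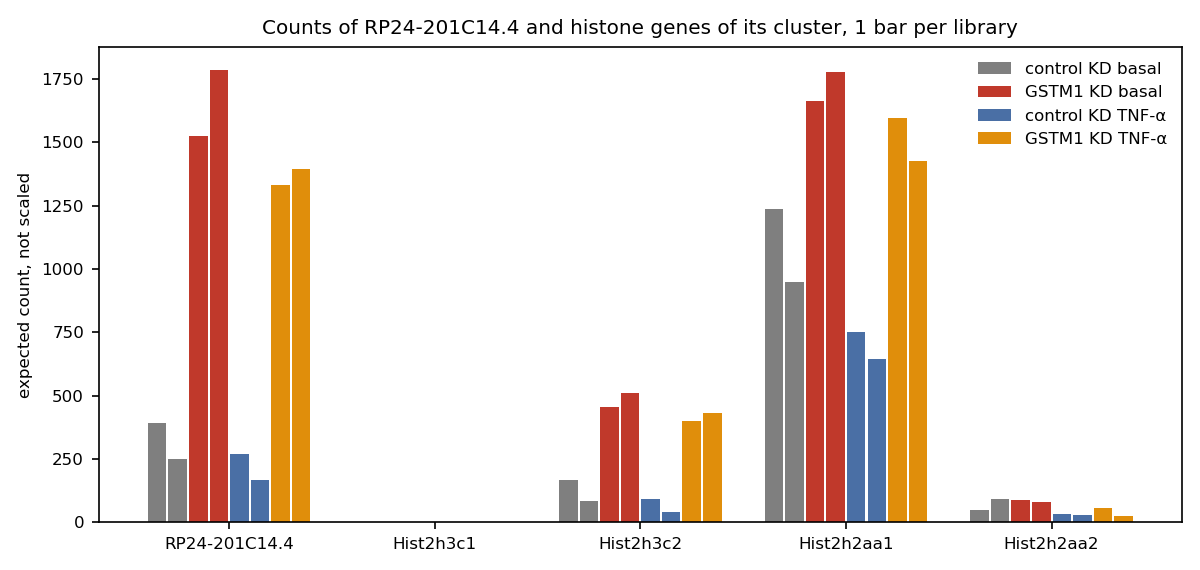
Expected counts, not scaled for depth, of RP24-201C14.4 and of 4 histone genes of its cluster (horizontal axis), with 1 bar per library coloured by group. RP24-201C14.4 and Hist2h3c2 were higher in every GSTM1 KD library than in any control KD library, whereas Hist2h3c1 was at 0 in all 8.

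Levels can be compared between genes per length in TPM. In GSTM1 KD at the basal level Nsg2 stood at 123 ± 4.38 TPM (SD, n = 2), Ctnnd2 at 80.7 ± 2.57, Tmem158 at 65.1 ± 10.2 and Mapre2 at 62.8 ± 6.05. RP24-201C14.4 followed at 50.8 ± 11.02 TPM, Rgs2 at 50.7 ± 3.78, Defb1 at 39.7 ± 13.3 and Tmem163 at 12.4 ± 3.48. From Tmem158 down to Defb1, neighbours in this order did not differ beyond their spread. In control KD at the basal level the order began with Nsg2 at 27.8 ± 10.7 TPM and ended with Defb1 at 2.05 ± 1.43 and Tmem163 at 0.845 ± 0.686, and Nsg2 overlapped Ctnnd2 (25.0 ± 1.22), Mapre2 (22.8 ± 4.48) and Tmem158 (21.2 ± 0.608). Defb1 thus moved from 12391 genes with more TPM in control KD to 4575 in GSTM1 KD, and Nsg2 from 5848 to 1484.

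**Figure D3:**
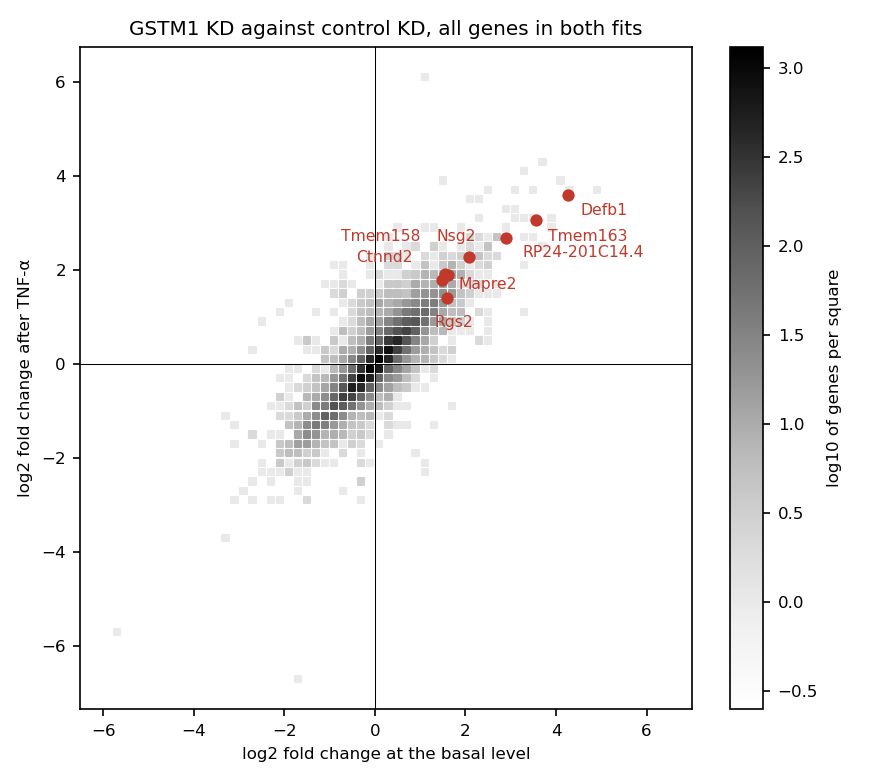
Log2 fold change of GSTM1 KD against control KD at the basal level (horizontal axis) and after TNF-α (vertical axis) for 14379 genes, as squares shaded by the log10 of the number of genes, with the 8 genes in red. The 8 genes spanned 1.47 to 4.26 without stimulation and 1.41 to 3.60 with TNF-α, and other genes lay as far out or further.

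The genes were chosen on differences between the knockdowns and not on their response to TNF-α, which was tested. Both came from the same 8 libraries. TNF-α is a cytokine that acts largely through NF-κB, and in both knockdowns the genes that passed were mostly higher: 2.10% of 15332 genes passed as higher and 0.528% as lower in control KD, and 2.35% and 0.294% did so in GSTM1 KD. None of the 8 genes passed as higher. In control KD, 1 of 8 passed as lower, Tmem158, which fell by 0.85 on the log2 scale from 18.1 and 18.6 CPM to 10.1 and 10.3 CPM (standard error 0.136, adjusted p = 0.0230 from edgeR). In GSTM1 KD, 1 of 8 passed as lower, Rgs2, which fell by 1.17 on the log2 scale from 61.8 and 61.9 CPM to 26.4 and 28.5 CPM (standard error 0.196, adjusted p = 0.0264 from edgeR). Its response in control KD was -1.001 (standard error 0.204) and missed the threshold (adjusted p = 0.0551), and that of Tmem158 in GSTM1 KD was -0.47 (standard error 0.129, adjusted p = 0.154).

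In the same fit, which has no term for the replicate number, the other 6 genes did not pass in either knockdown. With such a term (the replicate block), Rgs2 (adjusted p = 0.0231 from edgeR), Ctnnd2 (0.01935) and Mapre2 (0.00742) also passed in control KD, and Tmem158 (0.0399) in GSTM1 KD. In the fit without it, Ctnnd2 had responses of -0.48 (standard error 0.127) in control KD and -0.16 (standard error 0.1245) in GSTM1 KD. For Mapre2 they were -0.52 (standard error 0.141) and -0.20 (standard error 0.136), and for Nsg2 -0.29 (standard error 0.286) and -0.09 (standard error 0.275). Defb1 had responses of 0.26 (standard error 0.651) and -0.36 (standard error 0.458), Tmem163 of 0.20 (standard error 0.608) and -0.26 (standard error 0.453), and RP24-201C14.4 of 0.06 (standard error 0.203) and -0.13 (standard error 0.186). Both stimulated libraries lay under both basal libraries for Rgs2, Ctnnd2, Mapre2 and Tmem158 in each knockdown. That is 4 of 8 genes, against 18.3% of all genes tested in control KD and 22.2% in GSTM1 KD. The genes were chosen as consistently higher in these same libraries, so this comparison is not independent of the choice. The median response of the 8 genes was -0.39 for control KD and -0.23 for GSTM1 KD, against -0.02 and -0.01 over all genes.

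Both calls rested on the libraries and the test, and so did some values that missed the threshold. Tmem158 did not pass in control KD when only the 4 control KD libraries were fitted (adjusted p = 0.1245 from edgeR). Its log2 fold change was then -0.84, and that fit called 72 of all genes against 403 in the main fit. Leaving out 1 library at a time, its log2 fold change was -0.87 to -0.82. Over 17 alternative fits, those without 1 library among them, its adjusted p from edgeR or DESeq2 ranged from 8.83e-06 to 0.1245, and 11 passed. Rgs2 did not pass in GSTM1 KD with effective lengths in the fit (adjusted p = 0.166 from edgeR). Its log2 fold change was then -1.12, and that fit called 359 of all genes against 406 in the main fit. Leaving out 1 library at a time, its log2 fold change was -1.22 to -1.12. Rgs2 passed in 12 of 17 alternatives, those without 1 library among them, with adjusted p as low as 1.5e-11 from edgeR without the filter. In control KD, Rgs2 passed in 4, Ctnnd2 in 3 and Mapre2 in 2 of 17 alternatives, and Tmem158 passed in 2 of 17 in GSTM1 KD.

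**Figure D4:**
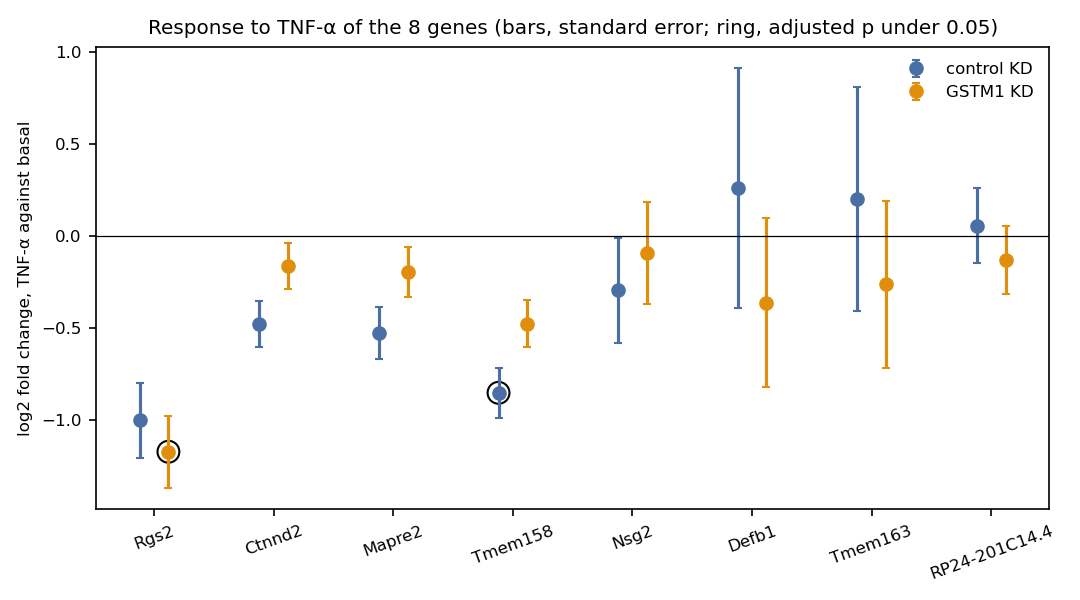
Log2 fold change of TNF-α stimulated against basal libraries (vertical axis) for the 8 genes (horizontal axis) in control KD and GSTM1 KD, with bars for the standard error and rings for an adjusted p under 0.05. Only Tmem158 in control KD and Rgs2 in GSTM1 KD are ringed, and the bars are widest for Defb1 and Tmem163, the genes of fewest counts.

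The difference between the responses of the knockdowns was calculated next. It is made of the same knockdown differences that chose the genes, and choosing genes higher in both states limits how far it could go. It was -0.17 for Rgs2 (standard error 0.281), 0.32 for Ctnnd2 (0.178), 0.33 for Mapre2 (0.195) and 0.38 for Tmem158 (0.187). For Nsg2 it was 0.20 (standard error 0.397), for Defb1 -0.62 (0.798), for Tmem163 -0.46 (0.759) and for RP24-201C14.4 -0.19 (0.275). None of the 8 genes passed, with edgeR or DESeq2, and none had an unadjusted p under 0.05 with edgeR. Because of how the genes were chosen, no conclusion is drawn from this. Over all 15332 genes edgeR called 0 (0.00%), with 295 at an unadjusted p under 0.05, and DESeq2 called 27. The standard errors of Defb1 and Tmem163 were so wide that a difference of the size seen could not be told from 0 with these libraries.

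Of 10 tested relatives of the 8 genes, 2 passed as higher (Pkp4 and Mapre3) and 1 as lower (Rgs16) between the knockdowns in either state, against 7.99% and 9.43% of all genes. Gq signaling is also regulated by Rgs4, Rgs5 and Rgs16. Rgs4, at 0.905 and 3.715 CPM against 2.19 and 4.76 CPM without stimulation, gave 0.61 on the log2 scale, and 0.23 with TNF-α, and did not pass (adjusted p = 0.594 and 0.831 from edgeR). Rgs5, at 0.424 and 0.978 CPM against 1.59 and 2.705 CPM, had 1.64 and 1.55, with the sign of Rgs2, and did not pass either (adjusted p = 0.100 and 0.0916). Rgs16 was lower in GSTM1 KD after stimulation, at 490 and 410 CPM against 240 and 181 CPM (log2 fold change -1.12, standard error 0.180, adjusted p = 0.0201 from edgeR), opposite in sign to Rgs2. At the basal level its value was -1.53 (adjusted p = 0.0595).

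Of the p120 catenin relatives of Ctnnd2, Pkp4, a plakophilin-like protein of cell junctions, was higher at the basal level, at 46.4 and 64.8 CPM against 113 and 115 CPM (log2 fold change 1.03, standard error 0.172, adjusted p = 0.0279 from edgeR), and after stimulation (0.98, adjusted p = 0.0243). Ctnnd1, which encodes p120 catenin itself, had log2 fold changes of -0.10 and -0.05, and Arvcf of 0.15 and 0.26, and neither passed. Among the EB proteins, Mapre1 had -0.37 and -0.38 and did not pass (adjusted p = 0.0963 and 0.0946), whereas Mapre3 had 0.47 at the basal level (adjusted p = 0.0579) and passed after stimulation at 0.45 (standard error 0.100, adjusted p = 0.0401). Nsg1, the closest relative of Nsg2, had -0.12 and -0.19 and did not pass. Slc30a1, a zinc exporter, had -0.02 and -0.10, and Caly and Slc30a10 had at most 9 and 12 counts in a library and were not tested.

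Of 155 genes in 8 pathway lists around the 8 genes, 127 were tested at the basal level, and 8 (6.30%) passed as higher and 12 (9.45%) as lower in GSTM1 KD, against 4.60% and 5.62% of all genes tested. After stimulation 13 (10.3%) of 126 passed as higher and 17 (13.5%) as lower, against 7.26% and 8.92% of all genes. The median log2 fold change over the list genes was 0.05 at the basal level and -0.02 after stimulation, against 0.00 and -0.01 over all genes. These counts moved with every library left out, and so did the calls over all genes. The lone library of a group is then assumed to vary like the pair that remains, so the counts of such fits are not compared with these shares.

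In the list of R4 RGS and Gq genes, with 11 of 15 tested, Gnaq, the α subunit of Gq that RGS2 acts on, was higher at the basal level at 157 and 146 CPM against 247 and 261 CPM (log2 fold change 0.75, standard error 0.110, adjusted p = 0.0234 from edgeR) and after stimulation (0.81, adjusted p = 0.0172). Rgs8 was lower, at 27.3 and 28.2 CPM against 12.1 and 10.97 CPM (-1.27, standard error 0.141, adjusted p = 0.0161), with -0.59 after stimulation (adjusted p = 0.0447). After stimulation Gna14 and Plcb1 also passed as higher, so that 3 were higher and 2 lower, and the list medians were 0.44 and 0.23. Of 15 cAMP and CREB response genes, all tested at the basal level, 1 passed as higher and 3 as lower, with 3 and 3 of 14 after stimulation. Among them Ptgs2, which encodes a prostaglandin synthase, was lower at 168 and 112 CPM against 58.6 and 74.5 CPM (-1.07, adjusted p = 0.0430), Dusp1, a phosphatase of MAP kinases, was lower (-0.80, adjusted p = 0.0270) and Ppargc1a, a coactivator of mitochondrial genes, was higher (0.75, adjusted p = 0.0361). All 3 passed in the same direction after stimulation, with log2 fold changes of -1.39, -0.68 and 0.89 in that order.

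In the list of cadherin and catenin genes, 14 of 18 were tested, 2 passed as higher and 0 as lower at the basal level, and 2 and 1 did so after stimulation. Besides Pkp4, Cdh6 passed at the basal level, at 21.04 and 31.4 CPM against 46.8 and 65.8 CPM (log2 fold change 1.11, adjusted p = 0.0494 from edgeR), and Ctnna2, the neuronal α-catenin, passed after stimulation, at 20.8 and 42.65 CPM against 75.6 and 112.5 CPM (1.55, adjusted p = 0.0434). Of 22 microtubule plus-end genes, 0 passed as higher and 2 as lower at the basal level, and 2 and 3 after stimulation. The SLAIN proteins promote microtubule growth with CLIP and EB proteins, and both their genes were lower: Slain2 at 77.9 and 71.25 CPM against 34.5 and 32.6 CPM (-1.15, standard error 0.109, adjusted p = 0.0155) and Slain1 at 124 and 93.0 CPM against 65.3 and 59.0 CPM (-0.81, standard error 0.164, adjusted p = 0.0402). After stimulation their values were -1.23 and -0.71, both past the test.

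Of 22 RAS-ERK response and senescence genes, 2 passed as higher and 4 as lower at the basal level, and 1 and 4 after stimulation. Spry1, a feedback inhibitor of this pathway, was lower at 37.8 and 39.0 CPM against 20.6 and 20.2 CPM (log2 fold change -0.91, standard error 0.117, adjusted p = 0.0194 from edgeR), with -1.54 after stimulation (adjusted p = 0.0109). Igfbp3, a secreted protein that senescent cells release, was lower, with -1.46 in each state (adjusted p = 0.0183 and 0.0106). Etv1 and Glb1 were the 2 that passed as higher at the basal level. At the basal level the 4 lower genes had the opposite sign to Tmem158, and Etv1 and Glb1 had the same sign. The activity of the pathway was not tested.

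Of 16 neuronal vesicular trafficking and endosome genes, 14 were tested and only Ehd3, an endosomal recycling protein, passed, as lower, at 32.3 and 29.3 CPM against 10.6 and 11.7 CPM (log2 fold change -1.47, standard error 0.146, adjusted p = 0.0160 from edgeR), with -1.39 after stimulation. Of 19 beta-defensin and antimicrobial genes, 7 had no count in any library and 6 were tested at the basal level, of which none passed. After stimulation only Ccl20, a chemokine that shares the receptor of some defensins, passed, with 369 and 235 control KD counts against 93 and 55 for GSTM1 KD (-2.03, standard error 0.230, adjusted p = 0.0118), opposite in sign to Defb1. Of 28 zinc transport and metallothionein genes, 2 of 23 passed as higher and 1 as lower at the basal level, and 2 and 2 of 24 after stimulation. Slc39a13, an importer of zinc into the cytosol, was higher at 45.8 and 46.1 CPM against 110 and 102 CPM (1.20, standard error 0.101, adjusted p = 0.0132) and by 1.26 after stimulation. Slc39a12 was higher at the basal level, at 13.3 and 35.2 CPM against 87.8 and 125 CPM (2.14, adjusted p = 0.0435) and missed the threshold after stimulation (1.98, adjusted p = 0.0510), and Slc39a7 was lower (-0.52 and -0.46, adjusted p = 0.0485 and 0.0379).

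**Figure D5:**
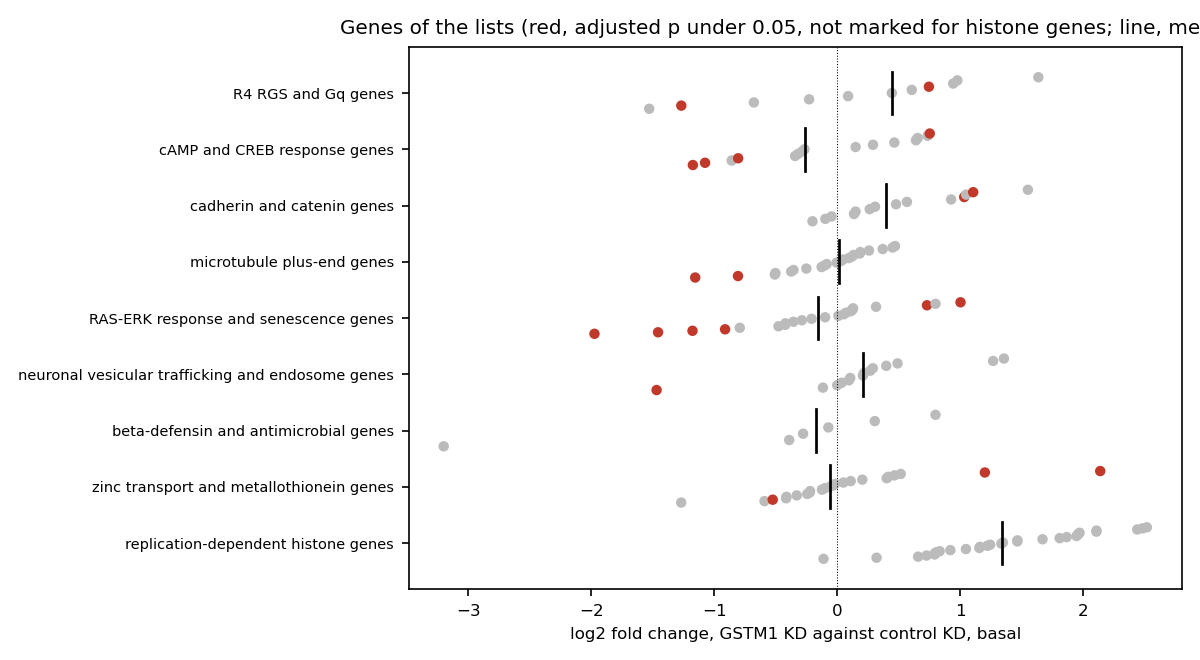
Log2 fold change of GSTM1 KD against control KD at the basal level (horizontal axis) for the tested genes of the 8 pathway lists and of the histone genes added after seeing the data (rows), with genes past an adjusted p of 0.05 in red except among the histone genes, and list medians as lines. Red points lay on both sides of 0, 8 higher and 12 lower over the pathway lists, and 29 of 30 histone genes lay above 0.

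Defb1 belongs to epithelia, and the epithelial cells of the brain line its ventricles. Of 9 ependymal and choroid plexus markers, Clic6, Kcne2 and Tmem212 had 3 counts or fewer in every library. The summed level was 107 to 165 CPM in unstimulated control KD against 133 to 147 CPM in unstimulated GSTM1 KD, where the ranges overlapped, and 91.6 to 108 CPM against 122 to 136 CPM after stimulation, where they did not. Of the 4 markers that could be tested, all 4 had a positive log2 fold change in each state, Folr1 alone passed, and the medians were 1.48 and 2.05. At the basal level Folr1 and Ccdc153 had 2.67 and 3.08, but Dynlrb2 and Foxj1 only 0.29 and 0.007, so no marker lay near the median. The part of such cells in the levels of Defb1 and the other genes was not tested.

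Neighbours on the chromosome were examined next. Within 1 Mb of a start of 7 of the genes, 136 other genes were tested, of which 7 (5.15%) passed as higher and 16 (11.8%) as lower in either state, against 7.99% and 9.43% of the 15113 genes tested in either state, with median log2 fold changes of -0.07 without and -0.12 with TNF-α. Of the 7, 5 lay near RP24-201C14.4, where 52 genes were tested. They were Hist2h3c2, RP24-201C14.5, Hist2h2aa1 and Hist2h2be, within 24.4 kb, and Ankrd35, at 425 kb. Their unstimulated log2 fold changes were 2.48, 0.91, 1.16, 1.465 and 2.09 in that order. RP24-201C14.4 shares stretches of 100 bases, on either strand, with Hist2h3c2, RP24-201C14.5 and Hist2h2aa1. How reads were divided between them was not tested, so the values of these neighbours may not be independent of its own. Around the other genes 2 of 84 (2.38%) passed as higher and 9 (10.7%) as lower. Ctnnd2 had no tested gene in that distance. Of the nearest tested genes on each side, Atp7b, a copper transporter whose start lay 284 kb downstream of that of Defb1, was higher at the basal level at 1.84 and 3.21 CPM against 6.83 and 9.47 CPM (1.70, standard error 0.350, adjusted p = 0.0412 from edgeR) but not past the threshold after stimulation (1.28, adjusted p = 0.0901). Dtna, 337 kb upstream of Mapre2, passed after stimulation only (0.52, adjusted p = 0.0371). No other nearest neighbour passed in either state, and those of Rgs2 were Brinp3 and RP23-90A8.2, with unstimulated values of -0.47 and 0.61.

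Across the 8 libraries, the log2 levels of the 8 genes had Pearson correlations with one another of 0.762 to 0.999 over 28 pairs, which describes libraries that share the same groups. Among 13378 genes with a mean of at least 1 CPM, the genes whose pattern was most like that of Rgs2 were Fbxl7, Depdc7 and Trib2 (r = 0.989, 0.987 and 0.985). Nearest to Ctnnd2 were Dync2li1, Ostm1 and Spats2l (0.998, 0.998 and 0.997), to Mapre2 Dmpk, Epm2a and Wbscr17 (0.997, 0.995 and 0.995), and to Tmem158 Tmtc4, Rapgef4 and Pomgnt2 (0.997, 0.996 and 0.995). Nsg2 was closest to Cldn2, Cd200 and Ankrd46 (each 0.998), of which Cldn2, a claudin of leaky epithelia, had 4 and 18 counts against 85 and 90 at the basal level. Defb1 and Tmem163 shared Gpr137c (0.997 and 0.998) and Tlk1 (each 0.997) as nearest genes, and the other one was RP23-78H18.2 for Defb1 and Ap2a1 for Tmem163 (each 0.997). For RP24-201C14.4 the genes were Kdsr, Mapkapk2 and Stk4 (0.998, 0.998 and 0.996).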

How the data were processed

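Per the labels and the paper, the authors sequenced 8 strand-specific libraries and used STAR (version 2.5.4b) with the GRCm38 build for mapping and RSEM (version 1.3.0) for quantification. Use of the strand in counting is not given in the sources used here. Expected counts, as deposited by the authors, estimate the fragments of each gene with no normalization, and reads that match several genes are divided in them. The deposited TPM values, scaled by the authors to the same total per library, and the deposited effective lengths in bases entered no main test. The paper calls the replicates biological. Whether they were separate cultures or animals is not stated in the sources used here, so p-values measure the spread between these libraries.

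The 8 genes and all lists were chosen with earlier results of these data known. Expected counts were rounded and tested in R (version 4.3.3) with edgeR (version 4.0.16): TMM factors, filterByExpr by group, the quasi-likelihood F-test and Benjamini-Hochberg adjustment over all genes at 0.05. All 8 genes passed the filter in every fit. GSTM1 KD and control KD were compared on the 4 libraries of a state, and the responses to TNF-α and their difference on all 8 libraries with 1 coefficient per group. Alternatives were DESeq2 (version 1.42.0), other scalings and filters, effective lengths as offsets, a replicate block, other sets of libraries and leaving out each library. Fits were tested on simulated counts. Genes were named by rule: the 8 genes, Gstm1, their paralogs, up to 3 genes per pathway list with the smallest p among those past the threshold with groups apart, the 3 genes of most similar log2 level (0.5 CPM added) per gene, and the nearest tested neighbours. A gene that this rule names is not reported here. Other genes were named after their values were seen. Histone genes, Folr1, Elavl3, Nefm and the remaining list genes are of that kind. Positions came from GENCODE release 21 for mouse and upstream sequences from RefSeq GRCm38.p6. Figures were drawn with matplotlib (version 3.10.9).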

Additional observations from a re-analysis of the deposited data

How the results depend on the processing

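With 2 libraries per group, the number of calls depended on the test more than the fold changes did. Of the 8 genes, 1 passed in the response to TNF-α of control KD. It was 0 when only 4 libraries were fitted, 2 with DESeq2, 2 with effective lengths as offsets, 4 without the filter, 4 with the replicate block, and 0 to 1 when 1 library was left out. In GSTM1 KD the number was 1, and it was 0 with effective lengths, 2 without the filter, 2 with the replicate block, and 0 to 1 when 1 library was left out. Calls over all genes moved as well. In control KD they were 403, against 72 with 4 libraries, 761 with DESeq2 and 381 with effective lengths. They were 1255 without the filter and 988 with the block. For GSTM1 KD they were 406, against 359 with effective lengths, 1050 without the filter and 808 with the block. In the difference of the responses, made of the values that chose the genes, 0 of the 8 passed under every setting run. Nothing is read from this, as the main fit called 0 of all genes. Of the pathway list genes, 20 passed at the basal level, against 39 with DESeq2, 32 with all 8 libraries, 56 without the filter and 60 with the replicate block. Over all genes, 1524 were called at the basal level, against 2522 with DESeq2, 2762 with all 8 libraries, 3957 without the filter and 4712 with the block. After TNF-α these numbers were 2360, 4540 without the filter and 4302 with the block. In the response of control KD, the block let Rgs2 (adjusted p = 0.0231 from edgeR), Ctnnd2 (0.01935) and Mapre2 (0.00742) pass beside Tmem158. In that of GSTM1 KD, Tmem158 (0.0399) passed beside Rgs2. After TNF-α 30 list genes passed, against 62 without the filter and 61 with the replicate block. In both states, leaving out 1 library moved the calls of list genes and those over all genes, so these counts are not compared. The replicate numbers were not taken to pair the libraries, because only 2 exist and no source says what a shared number marks. Over 15332 genes, the deviations of same-numbered libraries correlated between all groups. This correlation was highest between the basal and TNF-α groups of the same knockdown, which the responses compare: r = 0.687 (control KD) and 0.455 (GSTM1 KD). Groups of different knockdowns had r = 0.220 to 0.340. Whether same-numbered libraries shared an origin was not tested. Between the knockdowns, the log2 fold changes of the 8 genes ranged from 1.11 to 5.13 over all fits of both states. Their choice had set the sign, so only the range is read from this. Some responses that did not pass changed sign: with effective lengths, that of Tmem163 in control KD was -0.44 and the difference for Rgs2 was 0.04. Leaving out 1 library at a time, the response in control KD ranged from -0.64 to 0.16 for Nsg2, -0.48 to 1.15 for Defb1, -0.54 to 1.02 for Tmem163 and -0.06 to 0.17 for RP24-201C14.4. In GSTM1 KD it ranged from -0.20 to 0.01 for Nsg2, -0.66 to 0.02 for Defb1 and -0.34 to 0.11 for RP24-201C14.4. The difference ranged from -0.49 to 0.25 for Rgs2, -0.25 to 0.55 for Nsg2, -1.51 to 0.12 for Defb1, -1.28 to 0.28 for Tmem163 and -0.40 to 0.05 for RP24-201C14.4. The cause of these changes was not tested. Counts of 11 to 29 in control KD limit the precision for Defb1 and Tmem163.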
